A study of Mus musculus with 2 samples.

Results

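The glutathione, glucuronide, sulfate and aldehyde detoxification genes were followed in the dorsolateral prostate of miR-32 transgenic mice. They were taken as every probe of the array, controls aside, whose RefSeq accession belongs to a mouse gene symbol beginning with Gsta, Gstm, Gstp, Gstt, Gsto, Gstk, Gstz, Mgst, Ugt1, Ugt2, Sult or Aldh, and each gene took its probe with the highest mean intensity. Of 89 such symbols in the RefSeq table, 73 had a probe, among 18952 symbols on the array, and 16 symbols without one were not analysed here. The wild-type group was 1 pool of RNA from 6 FVB/N mice aged 6 months, and the transgenic group was 1 pool from 6 mice of the same strain and age that carry ARR2PB-miR32, in which a composite probasin promoter, active in androgen-responsive prostate epithelium, drives the microRNA miR-32. Both pools were hybridised together on 2 arrays with the dyes exchanged, the transgenic pool in Cy3 on array 1 and in Cy5 on array 2. Each genotype thus has 1 replicate measured by 2 technical repeats, the genotypes could not be tested against each other, and each ± is the SD over these repeats. Because whole tissue was pooled, fewer cells of a type and less RNA per cell cannot be told apart.

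The products of these genes clear electrophiles, hormones, drugs and reactive aldehydes. Glutathione transferases join the tripeptide glutathione to electrophilic compounds, UDP-glucuronosyltransferases (UGT) and sulfotransferases (SULT) add glucuronic acid or sulfate to steroids, phenols and bile acids so that they are inactivated and excreted, and aldehyde dehydrogenases (ALDH) oxidise aldehydes, including retinal, to carboxylic acids. Several glutathione transferase genes are known targets of the transcription factor NRF2, which binds antioxidant response elements, and in the prostate some of these enzymes also limit the local level of active androgen and oestrogen.

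The mature mouse miR-32-5p is shown first because miR-32 is the product of the transgene, with its seed (bases 2 to 8) in capitals. The promoters of Gsta3, Gstm5 and Mgst1 follow because they were the windows of detected glutathione transferases that held the antioxidant response element core TGACNNNGC, shown in capitals, on either strand. Each promoter runs from 250 bases before the start site to 50 after it, 5′ to 3′ on the gene's strand. All sequences are from RefSeq with build GRCm38.p6.
mmu-miR-32-5p: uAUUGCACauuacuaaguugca
Gsta3, chr1:21240335-21240634, plus strand: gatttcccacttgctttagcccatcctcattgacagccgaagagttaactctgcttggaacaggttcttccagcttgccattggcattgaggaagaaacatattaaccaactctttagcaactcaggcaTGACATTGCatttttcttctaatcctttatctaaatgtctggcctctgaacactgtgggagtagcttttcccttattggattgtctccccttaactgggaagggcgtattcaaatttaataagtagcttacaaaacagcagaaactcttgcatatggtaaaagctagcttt
Gstm5, chr3:107895604-107895903, plus strand: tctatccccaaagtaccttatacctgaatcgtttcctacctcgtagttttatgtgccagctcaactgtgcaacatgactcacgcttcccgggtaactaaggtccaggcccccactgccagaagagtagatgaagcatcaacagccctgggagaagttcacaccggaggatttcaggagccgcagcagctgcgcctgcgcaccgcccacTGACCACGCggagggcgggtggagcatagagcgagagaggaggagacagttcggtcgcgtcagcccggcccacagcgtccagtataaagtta
Mgst1, chr6:138140277-138140576, plus strand: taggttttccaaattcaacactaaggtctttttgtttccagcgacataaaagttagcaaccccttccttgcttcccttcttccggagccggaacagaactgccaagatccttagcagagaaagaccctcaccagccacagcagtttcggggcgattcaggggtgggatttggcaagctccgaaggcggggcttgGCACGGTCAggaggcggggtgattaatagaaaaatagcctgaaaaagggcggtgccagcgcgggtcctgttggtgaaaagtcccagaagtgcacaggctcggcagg
The match begins at base −121 from the start site in Gsta3, at −42 in Gstm5 and at −56 in Mgst1, where it lies on the minus strand. In Gstm5 all 5 bases of a GCGTG match, the xenobiotic response element core, lie inside it. In all, 5 of 44 windows (11.4%) of the 35 detected genes with a listed promoter held TGACNNNGC, the other genes being Aldh1a2 and Aldh9a1, against 12.4% of 32851 promoter windows of the same length. The core GCGTG was in 27.3% of the detected genes' windows and 32.4% of all windows, and the androgen response element half-site AGAACA in 18.2% and 19%, both searched on both strands. The shares of the detected genes thus lay near or under those of all promoters, and a match describes letters, not a bound site.

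Detection required that both arrays read 1 of the pools, the same one on each, well above background. By this rule 44 of the 73 genes were detected, as were 10407 of all 18952 genes. The wild-type pool met this requirement for all 44. The transgenic pool met it for 29 of them and was well above background on array 1 alone for the other 15 (Gsta1, Gstm4, Gsto2, Gstt1, Ugt2b34, Sult1c1, Sult2a8, Sult4a1, Aldh1a2, Aldh1a3, Aldh1l2, Aldh3b1, Aldh3b2, Aldh7a1 and Aldh8a1), so their array 2 ratios rest on a signal not well above background. The transgenic pool was read in a weak Cy5 channel on array 2, where 21.1% of spots were well above background, against 42.1% to 58.3% in the other 3 channels. The 29 genes not detected had net intensities over local background between −18 and 94 in any channel. All 15 luminal markers of the prostate were detected and 1 of 7 seminal vesicle products was.

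No detoxification gene passed the size rule. The rule asked for a log2 ratio of transgenic over wild type of at least 1.5-fold (0.585 in log2), in 1 direction, on each array. By this rule 0 of 44 detected detoxification genes were higher, where 0.913% of all detected genes were, and 0 of 44 were lower, where 1.31% of all detected genes were. The median log2 ratio of the 44 was −0.09 (−0.04 on array 1 and −0.11 on array 2), beside −0.06 (−0.03 and −0.08) for all detected genes. The ratios had opposite signs on the arrays for 23 of the 44, which is 52.3%, beside 54.6% of all detected genes. A further 13 were below 0 on both arrays (29.5%, beside 27.9% of all) and 8 above 0 on both (18.2%, beside 17.5%). These shares and the median lay close to those of all detected genes. The medians lay further apart among genes detected in both pools, at −0.17 for the set and −0.02 for all, and in the authors' deposited table, at −0.15 and −0.01.

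**Figure D1:**
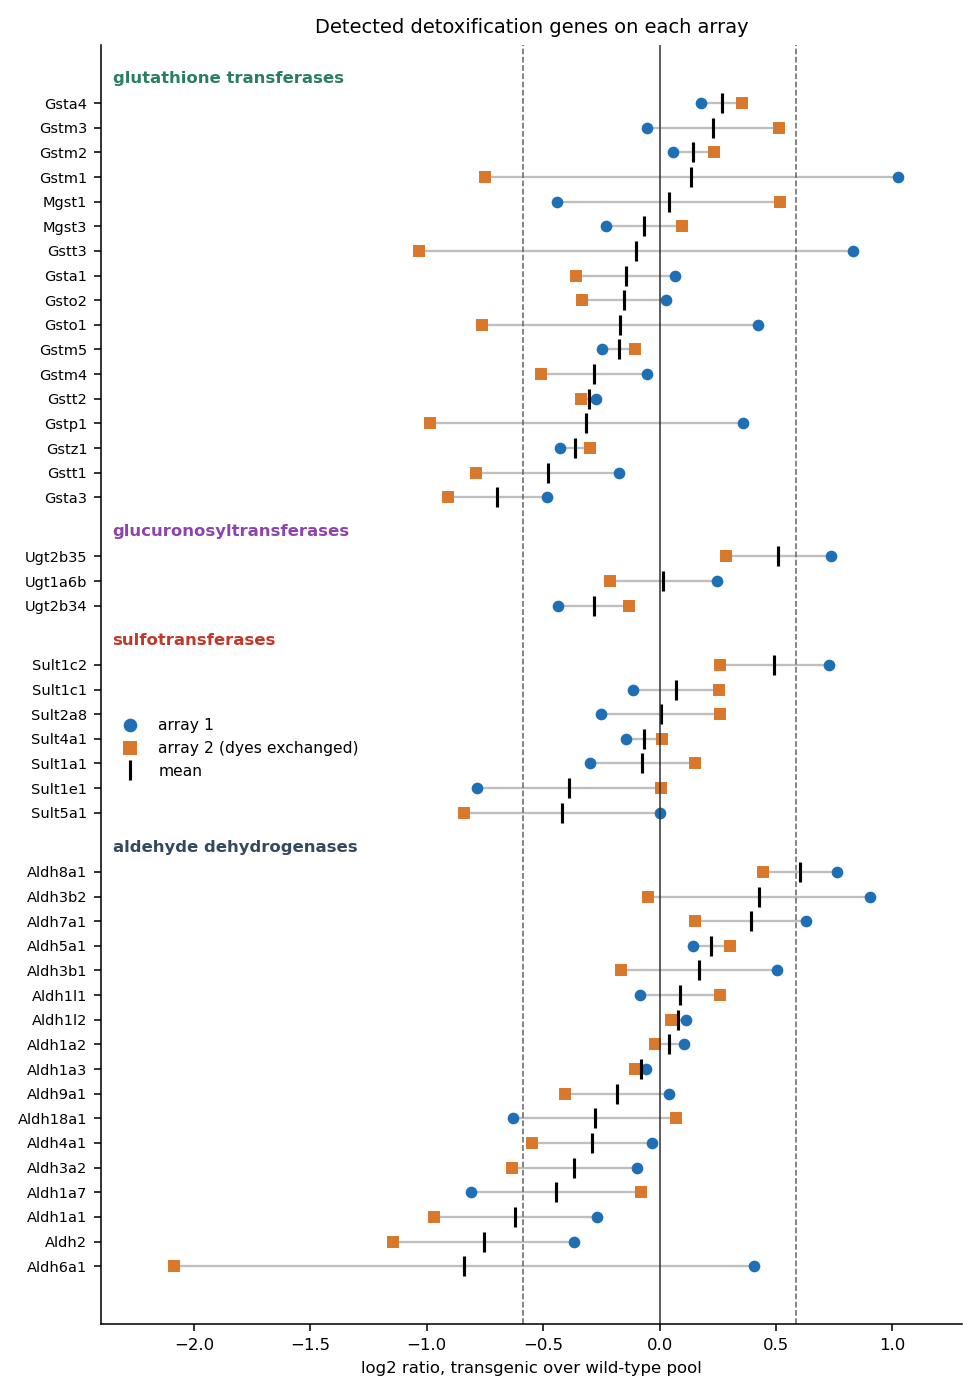
Each row is 1 of the 44 detected detoxification genes, with its log2 ratio of transgenic over wild-type pool on array 1 (circle), on array 2 with the dyes exchanged (square) and their mean (tick), and dashed lines at 1.5-fold. In no row do both points lie past the same dashed line, and 23 of 44 rows cross 0.

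Among the glutathione transferases, 17 of 23 genes were detected. Their mean ratios ran from −0.70 in Gsta3 to 0.27 in Gsta4, with a median of −0.15 (−0.05 on array 1, −0.34 on array 2). The 6 that were not detected were Gsta2, Gstm6, Gstm7, Gstp3, Gstt4 and Mgst2. On array 2 alone 6 of the 17 lay past 1.5-fold below wild type, where 15% of all detected genes did. On array 1 alone none lay past it below (5.36% of all did) and 2 lay past it above (8.12% of all did).

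The alpha class conjugates peroxidation products of membrane lipids. Gsta3, whose human counterpart also isomerises steroid intermediates, had normalized log2 intensities of 9.90 in the wild-type and 9.41 in the transgenic pool on array 1, and of 10.12 and 9.21 on array 2. The transgenic pool was thus the dimmer on each array, with ratios of −0.48 and −0.91 (−0.70 ± 0.30), short of 1.5-fold on array 1. In the authors' deposited table the ratios of Gsta3 were −0.58 and −0.92. Its second detected probe did not repeat the direction on array 1, with ratios of 0.21 and −0.73. Gsta4, the 4-hydroxynonenal-conjugating form, had intensities of 8.83 in wild type and 9.01 in transgenic on array 1 and of 8.86 and 9.22 on array 2. Its ratios of 0.18 and 0.35 were each the mean of 10 spots, with an SD over single spots of 0.48 and 0.59. Single spots ran from −0.15 to 1.41 on array 1 and from −0.56 to 1.48 on array 2, so spots of the same probe fell on both sides of 0. Gsta1 had ratios of 0.07 and −0.36, and the transgenic pool cleared background on 1 array.

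Mu class transferases are main cytosolic glutathione transferases of many epithelia. Gstm2 gave 13.12 in wild type and 13.17 in transgenic on array 1 and 12.99 and 13.22 on array 2. Its ratios of 0.06 and 0.23 (0.15 ± 0.12) left the pools under 1.5-fold apart, and in the authors' deposited table they were 0.26 and 0.54. Gstm1 gave 11.66 in wild type and 12.68 in transgenic on array 1 and 12.30 and 11.55 on array 2. The pool in Cy3 was the brighter on each array, with ratios of 1.02 and −0.75, so Gstm1 followed the dye and not the pool, as it did in the authors' deposited table at 0.61 and −0.46. Its second detected probe was at −0.25 and −0.45. Gstm3 was at −0.05 and 0.51, Gstm4 at −0.05 and −0.51 and Gstm5 at −0.25 and −0.10. Mu class genes are close paralogs and the probe sequences were not used here, so which transcript each of these probes reads is uncertain.

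Gstp1 encodes the pi class enzyme, whose promoter is commonly methylated in human prostate cancer. Its intensities were 10.39 in wild type and 10.74 in transgenic on array 1, and 10.75 and 9.76 on array 2. The ratios of 0.36 and −0.99 (−0.31 ± 0.95) had opposite signs, and a second detected probe was at −0.31 and −0.06. In the authors' deposited table the ratios of Gstp1 were 0.37 and −0.12, with a mean of 0.12. Gstp1 therefore showed no difference larger than the disagreement between the arrays, and Gstp2, its near-identical neighbour, was not analysed here.

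Of the theta class, which acts on small halogenated compounds, Gstt1 was at −0.17 and −0.79 and Gstt2 at −0.27 and −0.34. Gstt2, at −0.30 ± 0.04, had one of the smallest differences between arrays of the set in this setting. Its intensities were 8.19 and 7.92 in wild type and transgenic on array 1 and 8.41 and 8.07 on array 2. In the authors' deposited table the ratios of Gstt2 lay further apart, at −0.12 and −0.47. Gstt3, at 0.83 and −1.03, followed the dye in this setting, whereas in the authors' deposited table it was at 0.00 and 0.12, with no such pattern. Gstm1 and Gstt3 were the detoxification genes brighter in Cy3 past 1.5-fold on each array, a pattern that 282 of all detected genes had, and none was brighter in Cy5. Gstz1, the zeta class enzyme of tyrosine breakdown, gave 9.83 in wild type and 9.40 in transgenic on array 1 and 9.88 and 9.58 on array 2. Its ratios of −0.43 and −0.30 (−0.36 ± 0.09) were below 0 by more than they differed from each other, yet under 1.5-fold, and in the authors' deposited table they were −0.30 and −0.46.

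The omega class genes Gsto1 and Gsto2, whose products reduce dehydroascorbate and methylated arsenic, had opposite signs on the arrays, with 0.42 and −0.76 in Gsto1 and 0.03 and −0.33 in Gsto2. Of the membrane-bound microsomal enzymes, Mgst1 gave 10.46 in wild type and 10.02 in transgenic on array 1, and 10.53 and 11.05 on array 2. Its ratios of −0.44 and 0.52 opposed each other, and the second detected probe was at −0.28 and −0.88, so neither the arrays nor the probes gave Mgst1 a common direction. In the authors' deposited table the ratios of Mgst1 were −0.62 and 2.19. Mgst3, a microsomal enzyme that can also form leukotriene C4, was at −0.23 and 0.10.

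The genes whose promoters were shown above had no common value. Gsta3, Gstm5 and Mgst1 had mean ratios of −0.70, −0.17 and 0.04, and Aldh9a1 and Aldh1a2, the other detected genes with the core TGACNNNGC, were at −0.18 and 0.04.

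Few glucuronosyltransferases were detected in the prostate, 3 of 12. They were Ugt1a6b, which glucuronidates phenols, and the UGT2B genes Ugt2b34 and Ugt2b35, of a family that inactivates steroids including androgens. Ugt2b35 gave 6.81 in wild type and 7.55 in transgenic on array 1 and 6.84 and 7.13 on array 2. The normalized transgenic level was the higher on each array, with ratios of 0.73 and 0.28 (0.51 ± 0.32), past 1.5-fold on array 1 alone. In the authors' deposited table Ugt2b35 was at 1.71 and 1.31, past the rule on each array. Its signals were weak, with net intensities over local background of 71.5 in wild type and 134 in transgenic on array 1 and of 74 and 27 on array 2. Ugt2b34 was at −0.44 and −0.13 (−0.28 ± 0.22) and Ugt1a6b at 0.25 and −0.21, each under 1.5-fold. Forms of Ugt1a share exons, so a probe named for 1 form may read others. Ugt2b5, Ugt2b1, Ugt2b36, Ugt2b37, Ugt2b38, Ugt2a1, Ugt2a3, Ugt1a1 and Ugt1a9 were not detected.

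Sulfotransferases were detected for 7 of 17 genes, with a median of −0.07 (−0.14 on array 1 and 0.15 on array 2) and opposite signs on the arrays in 6 of the 7. Sult1e1, the oestrogen sulfotransferase, gave 9.79 in wild type and 9.00 in transgenic on array 1 and 9.20 and 9.21 on array 2. The pools thus differed on array 1 alone, with ratios of −0.78 and 0.01 (−0.39 ± 0.56), whereas in the authors' deposited table they were −0.56 and −0.61. Sult1c2, which sulfates phenols, was the sulfotransferase with ratios on the same side on each array, at 0.73 and 0.26 (0.49 ± 0.33). Its normalized intensities were 7.19 in wild type and 7.92 in transgenic on array 1 and 7.28 and 7.54 on array 2. Before normalization its net intensities on array 2 were 139.5 in wild type and 39 in transgenic. In the authors' deposited table Sult1c2 was at 1.02 and 0.48. Sult5a1 was at 0.00 and −0.84, so its mean of −0.42 came from array 2. Sult1a1, the main phenol sulfotransferase of liver, was at −0.30 and 0.15. Sult1c1 (−0.11 and 0.26), Sult2a8 (−0.25 and 0.26) and Sult4a1 (−0.14 and 0.01) cleared background in the transgenic pool on 1 array. The genes not detected were Sult1b1, Sult1d1, Sult2b1, Sult3a2, Sult6b1 and the SULT2A genes Sult2a3 to Sult2a7, whose family sulfates hydroxysteroids and bile acids.

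Aldehyde dehydrogenases were detected for 17 of 21 genes, with mean ratios from −0.84 in Aldh6a1 to 0.60 in Aldh8a1 and a median of −0.08 (0.04 on array 1 and −0.08 on array 2). Aldh6a1 and Aldh8a1 were also the ends of the range of all 44. Aldh16a1, Aldh1b1, Aldh3a1 and Aldh3b3 were not detected.

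The ALDH1A enzymes encoded by Aldh1a1, Aldh1a2 and Aldh1a3 make retinoic acid from retinal. Aldh1a1 gave 11.10 in wild type and 10.83 in transgenic on array 1 and 11.60 and 10.63 on array 2. The transgenic pool was the dimmer on each array, with ratios of −0.27 and −0.97 (−0.62 ± 0.49), past 1.5-fold on array 2 alone. In the authors' deposited table Aldh1a1 was at −0.81 and −0.59, past the rule on each array. Aldh1a7, a rodent paralog close enough in sequence that probes may be shared, gave 9.98 and 9.16 on array 1 and 9.76 and 9.68 on array 2 in wild type and transgenic, or −0.81 and −0.08 (−0.45 ± 0.52). Here the ratio of Aldh1a7 was the further from 0 on array 1 and that of Aldh1a1 on array 2, while in the authors' deposited table Aldh1a7 was at −0.69 and −0.49, in the same order as Aldh1a1. Aldh1a2, at 0.10 and −0.02, and Aldh1a3, at −0.06 and −0.11, lay within 0.11 of 0 on each array, and the transgenic pool cleared background on 1 array in both.

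Aldh2, the mitochondrial enzyme that clears acetaldehyde, gave 9.49 in wild type and 9.12 in transgenic on array 1 and 10.06 and 8.91 on array 2. The transgenic pool was dimmer on each array, with ratios of −0.37 and −1.14 (−0.76 ± 0.55), and Aldh2 had the most negative mean among the detoxification genes below 0 on both arrays. In the authors' deposited table its ratios were −0.74 and −0.81, past the rule on each array. Aldh3a2, the fatty aldehyde dehydrogenase, was at −0.10 and −0.63. Aldh3b1, which oxidises lipid-derived aldehydes, was at 0.50 and −0.17, and its relative Aldh3b2 at 0.90 and −0.05, both with the transgenic pool clear of background on 1 array.

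The remaining enzymes act mostly in amino acid, folate and GABA metabolism. Aldh6a1, the methylmalonate semialdehyde dehydrogenase of valine breakdown, gave 10.50 in wild type and 10.91 in transgenic on array 1 and 10.89 and 8.80 on array 2. Its ratios of 0.40 and −2.08 had the largest SD over the arrays of the 44 detected detoxification genes (1.76), so its mean of −0.84 rested on array 2. In the authors' deposited table Aldh6a1 was at −0.39 and −1.19. Aldh8a1, an enzyme of the kynurenine pathway of tryptophan breakdown, gave 6.91 in wild type and 7.67 in transgenic on array 1 and 6.94 and 7.39 on array 2. The normalized transgenic level was the higher on each array, with ratios of 0.76 and 0.44 (0.60 ± 0.23), short of 1.5-fold on array 2. There the transgenic signal was not well above background, with net intensities of 89.5 in wild type and 37.5 in transgenic. Aldh7a1, which breaks down lysine, was at 0.63 and 0.15 with the same limit on array 2, and Aldh5a1, the succinate semialdehyde dehydrogenase of GABA breakdown, at 0.14 and 0.30. Aldh18a1, which begins proline synthesis, was at −0.63 and 0.07, and Aldh4a1, which ends proline breakdown, at −0.03 and −0.55. Aldh9a1, of carnitine synthesis, was at 0.04 and −0.41. The folate enzymes Aldh1l1 and Aldh1l2 were at −0.08 and 0.26 and at 0.11 and 0.05.

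**Figure D2:**
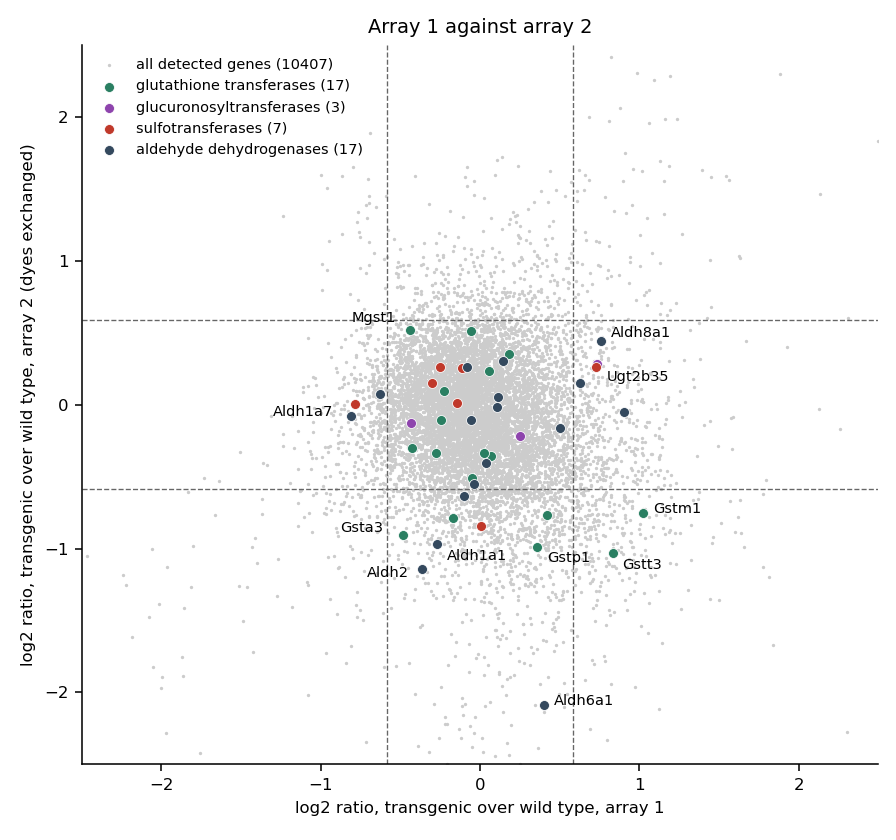
Each point is a gene, with its log2 ratio of transgenic over wild type on array 1 (x axis) and array 2 (y axis), grey for all 10407 detected genes and coloured for the 44 detoxification genes by enzyme class, with dashed lines at 1.5-fold and 42 grey genes outside the axes. No coloured point lies in the upper right or lower left corner past both lines, while Gstm1 and Gstt3 lie in the lower right corner, where the Cy3 pool was brighter on each array.

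The arrays differed from each other for many of the genes. The SD over the arrays had a median of 0.33 for the detoxification genes and 0.28 for all detected genes. On array 1 alone 7 of the 44 lay past 1.5-fold above wild type (8.12% of all detected genes did) and 3 below it (5.36% of all). On array 2 alone none lay past it above (5.23% of all) and 11 lay past it below (15% of all). Gstm1 and Gstt3 were in the first and in the last of these groups.

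Some genes kept their side of 0 under 5 ways of processing the scanner signals: the setting used, no background subtraction, an offset of 16, scaling between arrays and the scanner software's own log ratios. Aldh1a1, Aldh1a7, Aldh2, Gsta3, Gstm4, Gstm5, Gstt1, Gstt2 and Gstz1 were below 0 on both arrays in each of the 5, which is 20.5% of the 44, beside 17.1% of all detected genes. Of these 9, Gstm4 and Gstt1 had transgenic net intensities of 0 and −9.5 on array 2, at background, so their side there was not measured. Aldh5a1, Aldh7a1, Aldh8a1, Gsta4, Sult1c2 and Ugt2b35 were above 0 on both arrays in each of the 5, which is 13.6%, beside 9.92% of all detected genes, and Aldh7a1 and Aldh8a1 were at background in the transgenic pool on array 2. Among genes detected in both pools, 7 of 29 were below 0 throughout (12.5% of all such genes were) and 4 of 29 above (14.3% of all such genes were). Median centring lowered the median of all detected genes to −0.57, but it did not move all genes alike. On array 2 the bright gene Gstm2 went from 0.23 to −1.77 and the dim gene Ugt2b35 from 0.28 to −0.18. On array 1 they went from 0.06 to −0.03 and from 0.73 to 0.72. Median centring left 0 of the 44 above 0 on both arrays, so a side of 0 cannot be compared under it. Each of the other 29 detected genes changed its pattern of signs under at least 1 of the 5 or had opposite signs throughout.

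Under some of these alternatives genes of the set passed the size rule. With the scanner software's log ratios Aldh8a1 and Ugt2b35 (1.71 and 1.34) were past it above wild type, where 2.36% of all detected genes were. Aldh2 (−0.74 and −0.79) and Gstm4 were past it below, where 5.97% of all were. On array 2 the transgenic signal of Gstm4 and of Aldh8a1 was not well above background, so neither call rests on a measured level there. Aldh8a1 was also past the rule with an offset of 16, where 1.43% of all genes were higher. The authors' deposited table held 29 of the 44, and in it Ugt2b35 was past the rule above wild type (2.86% of its genes were) and Aldh1a1 and Aldh2 below (1.94% of its genes were). With median centring Aldh18a1, Aldh1a7 and Sult1e1 were past it below, where 5.32% of all genes were. The remaining alternatives called no gene of the set in either direction. Their shares of all genes called higher and lower were 0.836% and 0.913% with no background subtraction, 0.932% and 1.29% with scaling between arrays, 1.52% and 1.26% with detection in both pools, 0.512% and 0.718% with no filter on dim probes, 0.423% and 1.14% with the mean over probes and 0.24% and 0.356% with a 2-fold rule. With an offset of 16 no gene of the set was lower (2.3% of all were), and with median centring none was higher (0.0192% of all were). No gene of the set was past the rule in the same direction in more than 3 of the settings, counting each array alone as a setting. The scanner log ratio and the deposited table are not independent, since the table's ratios matched the scanner's with r and slope of 1.

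**Figure D3:**
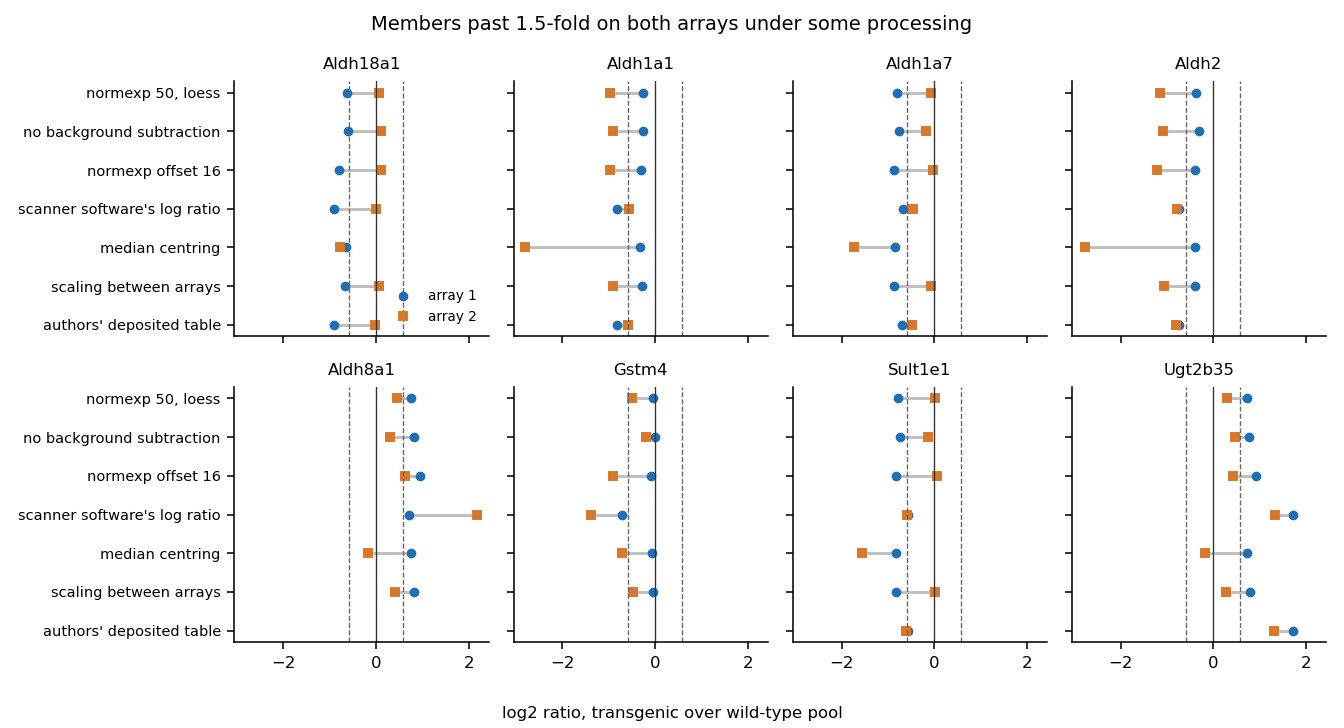
Each panel is 1 of the 8 detoxification genes that passed 1.5-fold on both arrays under some processing, with the log2 ratio of transgenic over wild type (x axis) on array 1 (circles) and array 2 (squares) under 7 settings (rows) and dashed lines at 1.5-fold. In the top row of each panel at least 1 point lies inside the dashed lines, and Aldh8a1 and Gstm4 have no point for the authors' deposited table, which does not hold them.

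The genes that supply and regulate these enzymes were examined from lists of pathway members. Of 26 detected genes of glutathione synthesis and recycling, none passed the rule, with a median of −0.02 (0.01 and −0.02 on arrays 1 and 2). Gclc, the catalytic subunit of the enzyme that limits glutathione synthesis, was at 0.14 and 0.18, its modifier subunit Gclm at −0.07 and 0.05, and Gsr, which regenerates reduced glutathione, at −0.08 and 0.35. Of 15 detected peroxidases, peroxiredoxins, dismutases and catalase, none passed, with a median of −0.32 that was −0.07 and −0.27 on the arrays. Of 12 detected cofactor genes none passed, with a median of −0.02. Ugdh, which makes UDP-glucuronic acid, was at 0.10 and −0.29, and the sulfate donor synthases Papss1 and Papss2 at −0.18 and 0.10 and at −0.03 and −0.35. None of 9 other conjugating enzymes, with a median of −0.19, and none of 8 conjugate efflux transporters, with a median of −0.18, passed the rule, and both medians were above 0 on array 1 and below 0 on array 2.

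Among 18 detected NRF2 regulators and other NRF2 targets, 1 was higher and none was lower, with a median of −0.08. The gene that was higher was Sqstm1, the autophagy receptor p62 that binds KEAP1, at 0.69 and 1.56 (1.12 ± 0.62). Nfe2l2, which encodes NRF2, was at −0.03 and −0.30, and its inhibitor Keap1 at 0.27 and 0.15. The target Hmox1, heme oxygenase, was at −0.13 and 0.23, with the transgenic pool clear of background on 1 array, and Nqo1, a quinone reductase, was not detected. Of 16 detected xenobiotic receptors and phase I genes none passed the rule, with a median of −0.15, and Ahr, the dioxin receptor, was at −0.23 and −0.08. Of 21 detected retinoid and other aldehyde genes, 1 was lower and none was higher, with a median of −0.07. It was Rbp4, the retinol carrier of plasma, at −0.75 and −1.02 (−0.88 ± 0.19), clear of background in the transgenic pool on 1 array. Rdh10, which makes the retinal used by the ALDH1A enzymes, was at −0.07 and −0.18.

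**Figure D4:**
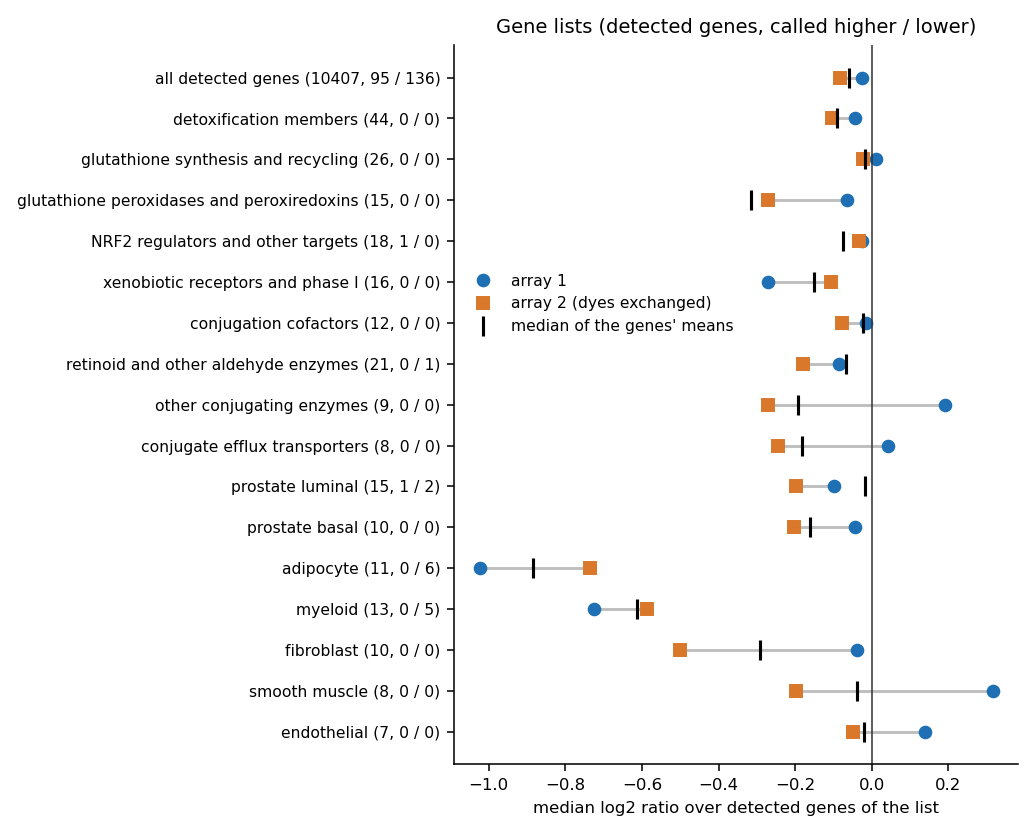
Each row is a list of genes, with the number detected and the numbers called higher and lower in brackets, and the median log2 ratio of transgenic over wild type on array 1 (circle), array 2 (square) and of the genes' means (tick). The detoxification genes lie beside all detected genes near 0, and the adipocyte and myeloid marker lists lie at −0.89 and −0.61.

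The adipocyte and myeloid marker lists had ratios below 0 on both arrays in every detected gene. Of 11 detected adipocyte markers of 13 listed, 6 were lower (Fabp4, Cfd, Car3, Cidec, Adipoq and Retn), all 11 means were below 0, and their summed intensity was 8843 and 9953 in the wild-type pool and 3137 and 2700 in the transgenic pool on arrays 1 and 2. Of 13 detected myeloid markers of 15 listed, 5 were lower (Cd74, Lyz1, C1qc, Ctss and Mrc1), all 13 means were below 0, and the summed intensity was 4584 and 6335 in the wild-type and 2254 and 2726 in the transgenic pool. Of the lower genes, Cfd, Car3, Adipoq, Retn, Lyz1, Ctss and Mrc1 cleared background in the transgenic pool on 1 array. They thus met the detection rule through the wild-type pool alone. Of all detected genes 1.31% were lower. Requiring detection in both pools left 76 of 136 lower calls and 92 of 95 higher calls, so the rule used here admits more lower calls. Lep and Itgam were not detected. In the same comparison 13 of the 44 detoxification genes were below 0 on both arrays (29.5%, beside 27.9% of all detected genes). Above 0 on both were 8 (18.2%, beside 17.5%). The part of fat, immune or seminal vesicle cells in these values was not tested. Of 15 luminal markers 1 was higher (Tmprss2) and 2 were lower (Msmb and Hoxb13), with a median of −0.02. Of lists with few detected genes, 1 of 2 B and plasma cell markers (Jchain, −1.94 ± 0.16), 1 of 3 T and NK cell markers (Ccl5, −0.74 ± 0.06) and the single detected seminal vesicle product (Ceacam10, −1.36 ± 0.14) were lower, each clear of background in the transgenic pool on 1 array. None of 10 basal, 10 fibroblast, 8 smooth muscle, 7 endothelial or 3 urothelial markers passed the rule. The single detected hepatocyte marker did not pass it either, and Alb, Apoa1, Apoa2, Ttr and Fgb, defining products of liver, were not detected.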

How the data were processed

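Dorsolateral prostate RNA was measured on 2-colour Agilent arrays. Per the file headers, Feature Extraction 11.0.1.1 made the deposited scanner files, and the deposited median spot and local background signals are intensities in each dye, with no background subtraction or dye normalization. The scanner software's processed signals are background-subtracted and dye-normalized, and the log10 ratios deposited beside them are of Cy5 over Cy3, per the file headers. The authors' deposited table holds log2 values in 8533 rows. Its scale, centring and direction are unstated and were found from the scanner values of its 8498 non-control probes: r and slope were 1 against the scanner's log2 ratio of transgenic over wild type, and both column medians were 0. A filter on it, if any, was not given in the sources used here.

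Directions follow the dyes in the labels. With limma 3.58.1 in R 4.3.3, normexp background correction used an offset of 50, and loess within arrays gave control and outlier spots weight 0. Median signals stood in for the planned mean signals. Of 43379 non-control spots (41174 probes), 157 and 177 outliers were left out. No spot was saturated. Over the 245 probes with 10 spots each, the SD between spots in log2 ratio was 0.17 on array 1 and 0.23 on array 2 (medians). The number of arrays limits the precision.

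Accessions named 27816 probes through a RefSeq table of GRCm38.p6 and left 13358 unnamed. The headers cite another build, so no probe is placed on the genome, and the promoter windows have RefSeq's coordinates on GRCm38.p6. The log2 levels and summed intensities are those of each channel after loess and a further quantile normalization between the arrays. That step acted on the mean intensity of the channels and left the ratios unchanged. The levels therefore do not show the weaker transgenic signal of array 2, as in Aldh2 with net intensities of 589 on array 1 and 115 on array 2. The members and gene lists were chosen with earlier results of these data known. Any member could be named, and of the listed genes those past the rule and 12 of prior interest. The alternatives were other background corrections, offsets, normalizations, detection filters, probe summaries and fold rules, and each array alone. Scripts were tested on simulated log ratios, in which the rule recovered 2% of 1.5-fold, 70% of 2-fold and 100% of 4-fold changes. The changes were added after normalization, with the same dye spread and spot noise for bright and dim genes. Neither the offset nor the weak Cy5 channel of array 2 was simulated, so these shares cannot be taken to hold for dim genes.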

Additional observations from a re-analysis of the deposited data

How the results depend on the processing

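With no test across samples, the outcomes compared here are the counts past 1.5-fold and the median. The count of detoxification genes past the rule above wild type was 0 in the setting used, 1 with an offset of 16, 2 with the scanner's ratios and 1 in the authors' deposited table. It ranged from 0 to 7 without replicate 1 or 2, that is, on 1 array alone. The count below wild type was 0, then 2 with the scanner's ratios, 3 with median centring, 2 in the authors' deposited table and 3 to 11 on 1 array alone. Both counts were also 0 with no background subtraction, scaling between arrays, no filter on dim probes and the mean over probes. They could only be 0 with detection in both pools and with a 2-fold rule, which narrow the same ratios.

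The median of the detoxification genes was −0.09 and stayed below 0 throughout. It was −0.15 with the scanner's ratios (all genes −0.11), −0.70 with median centring (all −0.57), −0.15 in the authors' deposited table (all −0.01), −0.17 with detection in both pools (all −0.02) and −0.0249 with no filter on dim probes (all −0.01). On 1 array alone it was −0.1052 or −0.0436. The cause of these differences was not tested, except that the filters and the deposited table hold other sets of genes. No paired analysis was possible because each genotype had 1 pool. The weak Cy5 signal of array 2 limits most directly the 15 genes measured in the transgenic pool on 1 array. The array 2 ratios were uneven among the other 29 as well, with 10 past 1.5-fold below wild type and 0 past it above. Of all detected genes 15% were past it below and 5.23% above on array 2. Whether the weak signal played a part in this was not tested.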
